A study of Mus musculus with 2 samples.

Results

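The cytosolic ribosomal protein genes encode the protein part of the ribosome that translates nuclear messages. They were taken here as every gene whose symbol begins with Rpl or Rps and that has a protein-coding transcript in the deposited transcript table, leaving out the S6 kinase genes (Rps6k) and symbols that hold "-ps", the mark of a pseudogene. This gave 86 members of 55536 annotated genes. Of these, 77 form the core set of ribosomal proteins, 46 of the large and 31 of the small subunit, each named by the subunit its protein belongs to. The other 9 are paralogs of core genes (Rpl3l, Rpl7l1, Rpl10l, Rpl22l1, Rpl36al, Rpl39l, Rps27l and Rps27rt) and Rps19bp1, which encodes a binding partner of Rps19 and no ribosomal protein. Fau and Rack1 also encode ribosomal proteins but carry symbols outside the rule, and they are given beside the members.

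The series holds total RNA-seq of the left cerebral cortex of 2 male mice, 8 to 10 months old, from a cross of the 5xFAD strain with CAST. 5xFAD mice carry human transgenes with familial Alzheimer's disease mutations, driven by the neuronal Thy1 promoter; the CAST parent comes from wild-derived stock. Both animals belong to the same group, named replicate 1 and replicate 2 by the labels. There is thus no control group without the transgenes, of another age or of the other sex. Whether each animal carried the transgenes was not examined here. Libraries were made from 300 ng of RNA depleted of ribosomal RNA. Annotated genes received 33925221 reads in replicate 1 and 32380330 in replicate 2. Camk2a, a defining gene of excitatory cortical neurons, was at 946 and 968 TPM (the deposited level, a count divided by transcript length and scaled to a fixed total), so the tissue's marker was present in both. All 8 markers of the choroid plexus were higher in replicate 1, with a summed level of 26.9 TPM there and 8.24 TPM in replicate 2. In bulk tissue, fewer cells of a type and less RNA per cell cannot be told apart.

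A ribosome contains each core protein once, apart from the acidic stalk proteins, which are present in several copies. The messages of these proteins begin with a pyrimidine-rich start, the TOP element, through which mTOR signalling sets their translation together. Their genes are short, highly expressed and conserved, and their messages have been copied back into mammalian genomes many times as processed pseudogenes. Reads from such a copy and from its parent can be hard to tell apart, which bears on every level given here.

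The core genes stood among the most abundant protein-coding messages of the cortex. Their median level was 212 TPM in replicate 1 and 211 TPM in replicate 2, against a median of 14.0 and 15.1 TPM over protein-coding genes at 1 TPM or more. Of the 77 core genes, 56 were among the 500 most abundant of 22028 protein-coding genes, and 71 among the 1000 most abundant. Over all 86 members the median was 195 TPM ± 0.283 (SD, n = 2). TPM is a share of all annotated RNA, including small structural and mitochondrial RNA: rescaled to nuclear protein-coding genes alone, the members' median was 447 ± 22.2 (SD, n = 2). The core genes summed to 18251 TPM in replicate 1 and 17896 TPM in replicate 2, but, being short, they received only 0.724% and 0.670% of the reads. Mitochondrial ribosomal protein genes, which build the separate ribosome inside mitochondria, had a median of 22.2 TPM ± 0.548 (SD over 2 animals, 78 genes). Proteasome subunit genes, taken by symbol (Psma, Psmb, Psmc and Psmd) and not curated as the core set was, had a median of 52.0 TPM ± 2.98 (SD over 2 animals, 38 genes at 1 TPM or more).

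Levels differed widely between core genes and hardly between animals. Across the 77 genes the SD of log2 TPM was 0.95 in replicate 1 and 0.91 in replicate 2, and the highest level was 46.5 and 37.7 times the lowest. In the same animals the SD of log2 TPM was 0.78 over the mitochondrial ribosomal protein genes and 1.47 over the proteasome genes. Of the 77 core genes, 62 had a mean level between 100 and 400 TPM, 7 were above and 8 below. In 65 of the 77 the animals were within 10% of each other in TPM. Log2 levels of the core genes correlated between animals with r = 0.99 across genes, which are not independent replicates and share the same annotation and lengths.

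**Figure D1:**
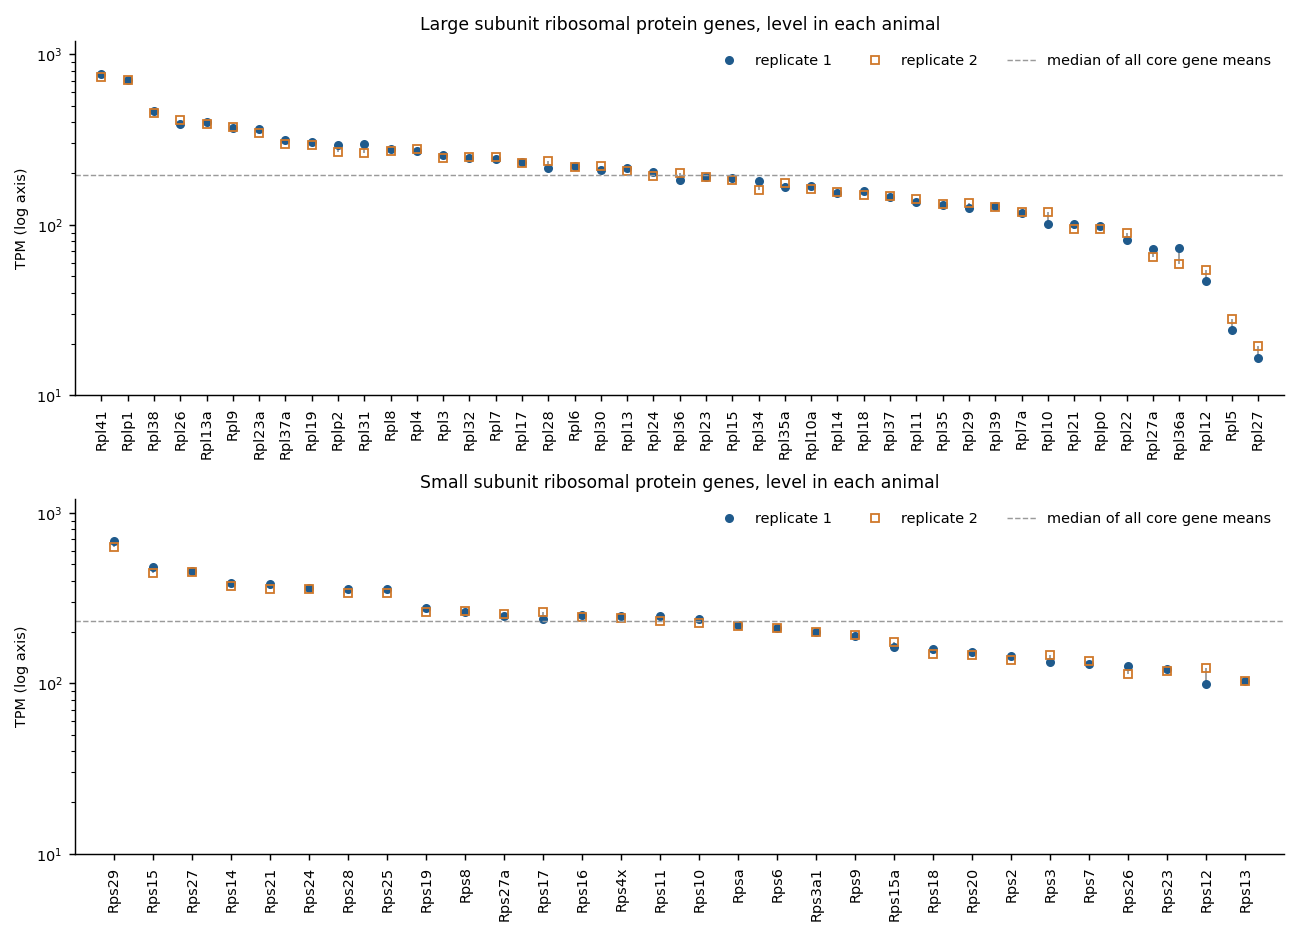
Level of core genes in each animal, in TPM on a log axis, for the large subunit (top) and the small subunit (bottom). Points are the 2 animals, the dashed line is the median of the means of all core genes of that subunit; levels run from 754 TPM for Rpl41 down to 18.1 TPM for Rpl27, and both animals give nearly the same order.

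In the large subunit, Rpl41 was highest, at 771 TPM in replicate 1 and 737 TPM in replicate 2. It encodes a very small basic protein of 25 residues, whose whole reading frame is shown here because it is the most abundant of the members. The gene lies at chr10:128548114-128549305 on the minus strand of mm10.
Rpl41: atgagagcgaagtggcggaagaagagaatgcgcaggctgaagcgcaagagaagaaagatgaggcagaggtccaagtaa
Rplp1, an acidic protein of the stalk that recruits translation factors, followed at 709 and 710 TPM. The next were Rpl38 at 462 and 450 TPM, Rpl26 at 392 and 413 TPM, and Rpl13a, a protein also known from the control of inflammatory messages, at 403 and 391 TPM. The levels of Rpl41 and Rplp1 in the 2 animals did not overlap with each other or with those after them in the RSEM-format table. In the kallisto-format table Rpl41 was again highest of these (1131 and 922 TPM), but Rplp1 (520 and 482 TPM) was below Rpl38 (603 and 647 TPM).

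At the lower end of the large subunit, Rpl27 was at 16.6 TPM in replicate 1 and 19.5 TPM in replicate 2, and Rpl5 at 24.3 and 27.9 TPM. Rpl12, the protein at the base of the stalk, was at 47.1 and 54.0 TPM. Rpl36a was at 73.1 and 58.9 TPM and Rpl27a at 72.1 and 64.3 TPM. All 8 core genes below 100 TPM were of the large subunit, the other three being Rpl22, Rplp0 and Rpl21. With copies added all of these but Rpl22 were higher, as described below. Rpl22 was at 85.6 TPM in the mean, 85.7 TPM with copies and 83.8 TPM in the kallisto-format table.

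In the small subunit, Rps29 was highest at 685 TPM in replicate 1 and 631 TPM in replicate 2. Rps15 followed at 482 and 441 TPM, then Rps27 at 456 and 448 TPM. Rps14, a protein of the platform, was at 385 and 373 TPM and Rps21 at 381 and 356 TPM. The lowest were Rps13 at 103 and 102 TPM, Rps12 at 98.9 and 122 TPM, and Rps23, a protein of the decoding centre, at 121 and 118 TPM. Rps26 was at 127 and 113 TPM, and Rps7 at 130 and 134 TPM. The small subunit spanned 6.54-fold ± 0.541 (SD, n = 2) from lowest to highest, against 42.1-fold ± 6.21 for the large subunit. The contrast was smaller in the kallisto-format table, at 9.89-fold and 17.98-fold, and with copies, at 5.76-fold and 9.05-fold.

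The median of log2 TPM of the 46 large subunit genes lay below that of the 31 small subunit genes by 0.28 in replicate 1 and 0.21 in replicate 2. The difference of large minus small was -0.24 ± 0.05 (SD, n = 2), from medians of 197 TPM for the large and 233 TPM for the small subunit. It had the opposite sign in the kallisto-format table, the other quantification the authors deposited, where it was 0.07 ± 0.02 (SD, n = 2). With each gene's copies added, it was -0.08 ± 0.03 in the RSEM-format and -0.07 ± 0.03 in the kallisto-format table. Limited to genes with under 50% shared sequence (runs of 31 bases also found in other genes), it was -0.33 ± 0.04 in the RSEM-format table. These were 30 of 46 large and 20 of 31 small subunit genes. The direction of a difference between the subunits therefore rested on the table used. The difference was close to 0 once copies were counted with their parents, but not in the genes with under 50% shared sequence.

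Functional groups were spread over the whole range, given here as single-gene levels of the RSEM-format table, with the level including copies where it changes the order. Of the stalk proteins, Rplp1 (709 and 710 TPM) and Rplp2 (295 and 268 TPM) stood above Rplp0 (98.5 and 94.2 TPM), the base that carries them, and Rpl12 (47.1 and 54.0 TPM). With copies Rpl12 was at 285 TPM ± 10.2, beside 281 TPM ± 18.7 for Rplp2 (SD, n = 2), so the order of these 2 was lost. Of the 2 proteins that carry the 5S ribosomal RNA and, when free, bind the p53 regulator Mdm2, Rpl11 was at 136 and 141 TPM and Rpl5 at 24.3 and 27.9 TPM, or 249 and 193 TPM in the mean with copies. The 9 proteins listed for the exit tunnel and its mouth, through which the nascent chain leaves, ranged from Rpl22 at 81.7 and 89.6 TPM to Rpl26. Between them lay Rpl23a (363 and 344 TPM), Rpl19 (307 and 295 TPM), Rpl31 (299 and 262 TPM), Rpl4 (272 and 277 TPM), Rpl17 (234 and 230 TPM), Rpl35 (131 and 132 TPM) and Rpl39 (128 and 128 TPM). Rpl31 stood above Rpl26 with copies (476 against 443 TPM) and in the kallisto-format table (537 against 412 TPM). Rps2 and Rps3, which line the entry of the message, were at 144 and 137 TPM and at 133 and 146 TPM. With copies Rps2 was at 375 TPM ± 23.4 and Rps3 at 139 TPM ± 9.67 (SD, n = 2), so their single-gene levels overlapped and their levels with copies did not. The genes outside the rule fell in the same range. Fau, a fusion of a ubiquitin-like and a small subunit protein, was at 387 and 381 TPM, and Rack1, a scaffold on the small subunit, at 112 and 114 TPM.

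Part of the level of these messages was assigned to copies elsewhere in the genome. A copy was counted where another gene outside the members shared at least 100 different runs of 31 bases with a member, and these were at least 20% of its own. By this rule 610 genes were copies, of which 583 are annotated as processed pseudogenes and 17 as transcribed processed pseudogenes. Of the 77 core genes 71 had at least 1 copy, with a median of 5 and up to 58, for Rpl21. Most copies were low or silent: 280 were at 0 TPM in both animals and 115 had a mean of at least 1 TPM. Yet 19 had a mean of at least 100 TPM, and together the copies of core genes held 5912 TPM in replicate 1 and 5871 TPM in replicate 2, beside 18251 and 17896 TPM on the core genes themselves. In the kallisto-format table the copies held less, 3535 and 3691 TPM.

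By the mean level in the RSEM-format table the most abundant copy was Rps23-ps1 on chromosome 3, at 380 and 383 TPM, above its parent Rps23 at 121 and 118 TPM. Rpl37rt on chromosome 5 was at 383 and 357 TPM, with its parent Rpl37 at 146 and 148 TPM. The 2 copies overlapped, and in the kallisto-format table Rpl37rt was the higher, at 333 and 280 TPM. Gm10275, a copy of Rpl12 on chromosome 10, was at 244 and 223 TPM, Rpl28-ps1 at 191 and 208 TPM, and Gm7536, a copy of Rpl27a, at 185 and 198 TPM. Rpl31-ps8 was at 181 and 195 TPM, Rps2-ps13 at 200 and 174 TPM, and Gm6472, a copy of Rps7 on the X chromosome, at 182 and 165 TPM. For Rpl5 the copy Gm15500 was at 165 and 167 TPM, and for Rpl27 the copies Gm11518 and Rpl27-ps3 each stood at 91.4 and 88.4 TPM. Rpl10-ps3 (172 and 155 TPM) and Rps12-ps3 (176 and 136 TPM) are typed protein-coding in the annotation but left out of the members by their symbols.

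The copies were close to their parents in sequence, which follows in part from the rule that chose them by shared runs of bases. Of the 74 copies with a mean of at least 10 TPM, 16 had no base that differed from the parent's coding sequence over the bases they share, and 39 had between 1 and 4. The lowest identity was 97.1%. The following stretches stand for the kinds seen: Rpl37 (chr15:5116645-5119140, plus strand of mm10) and Rpl37rt (chr5:115102923-115110268, minus strand) differ at 1 coding base, G249A, counted from the first base of the Rpl37 reading frame, and the stretch from base 231 to base 270 is shown with that base in capitals.
Rpl37: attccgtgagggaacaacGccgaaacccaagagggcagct
Rpl37rt: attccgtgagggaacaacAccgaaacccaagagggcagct
Rps7 (chr12:28630854-28635953, minus strand) and Gm6472 (chrX:152909505-152910155, minus strand) differ at 3 coding bases, of which T26G and G48A fall in the stretch from base 21 to base 60.
Rps7: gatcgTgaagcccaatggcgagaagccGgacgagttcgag
Gm6472: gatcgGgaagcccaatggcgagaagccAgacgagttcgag
Rps23 (chr13:90922958-90924950, plus strand) and Rpl31 (chr1:39367842-39371911, plus strand) have copies with no differing coding base, Rps23-ps1 and Rpl31-ps8. Coding bases 101 to 160 of each parent are shown. By the reference sequence, a read within them would carry nothing to tell parent from copy. All sequences compared here are of the reference, and those of the CAST parent were not examined.
Rps23: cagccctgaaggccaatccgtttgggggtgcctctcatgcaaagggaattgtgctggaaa
Rpl31: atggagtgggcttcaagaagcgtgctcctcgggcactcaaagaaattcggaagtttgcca

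Counting each core gene with its copies narrowed the spread. This sum was formed after the single-gene levels had been seen. The SD of log2 TPM fell from 0.93 ± 0.03 to 0.59 ± 0.01 (SD, n = 2), and the ratio of highest to lowest fell from 42.1 to 9.36. Of the 77 genes, 70 then lay between 150 and 600 TPM and 4 below 150 TPM. Rpl27 rose from a mean of 18.1 to 198 TPM, Rpl5 from 26.1 to 193 TPM, and Rpl12 from 50.5 to 285 TPM. Rps23 rose from 119 to 503 TPM and Rpl37 from 147 to 517 TPM. The parent held a median of 85.4% of this sum. In 15 of 77 genes it held under 50%: 9.11% for Rpl27, 13.5% for Rpl5, 17.8% for Rpl12, 21.9% for Rpl27a, 23.8% for Rps23 and 24.7% for Rpl21 were the lowest. In 35 of 77 it held over 90%, and among those with no copy by this rule were Rpl8, Rps21, Rplp2, Rps27 and Rpl39. These genes still had sequence shared with other genes, so their levels were not free of reads that are hard to place. The shared part was 50.1% for Rps27, 45.3% for Rps21, 34.9% for Rplp2, 21.8% for Rpl39 and 8.05% for Rpl8. Rps27rt, identical to Rps27 in coding sequence, is itself a member and so was not counted as a copy. With copies counted the lowest core genes were Rpl22 at 85.7 TPM ± 5.44, Rpl39 at 128 TPM ± 0.368 and Rps3 at 139 TPM ± 9.67 (SD, n = 2).

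**Figure D2:**
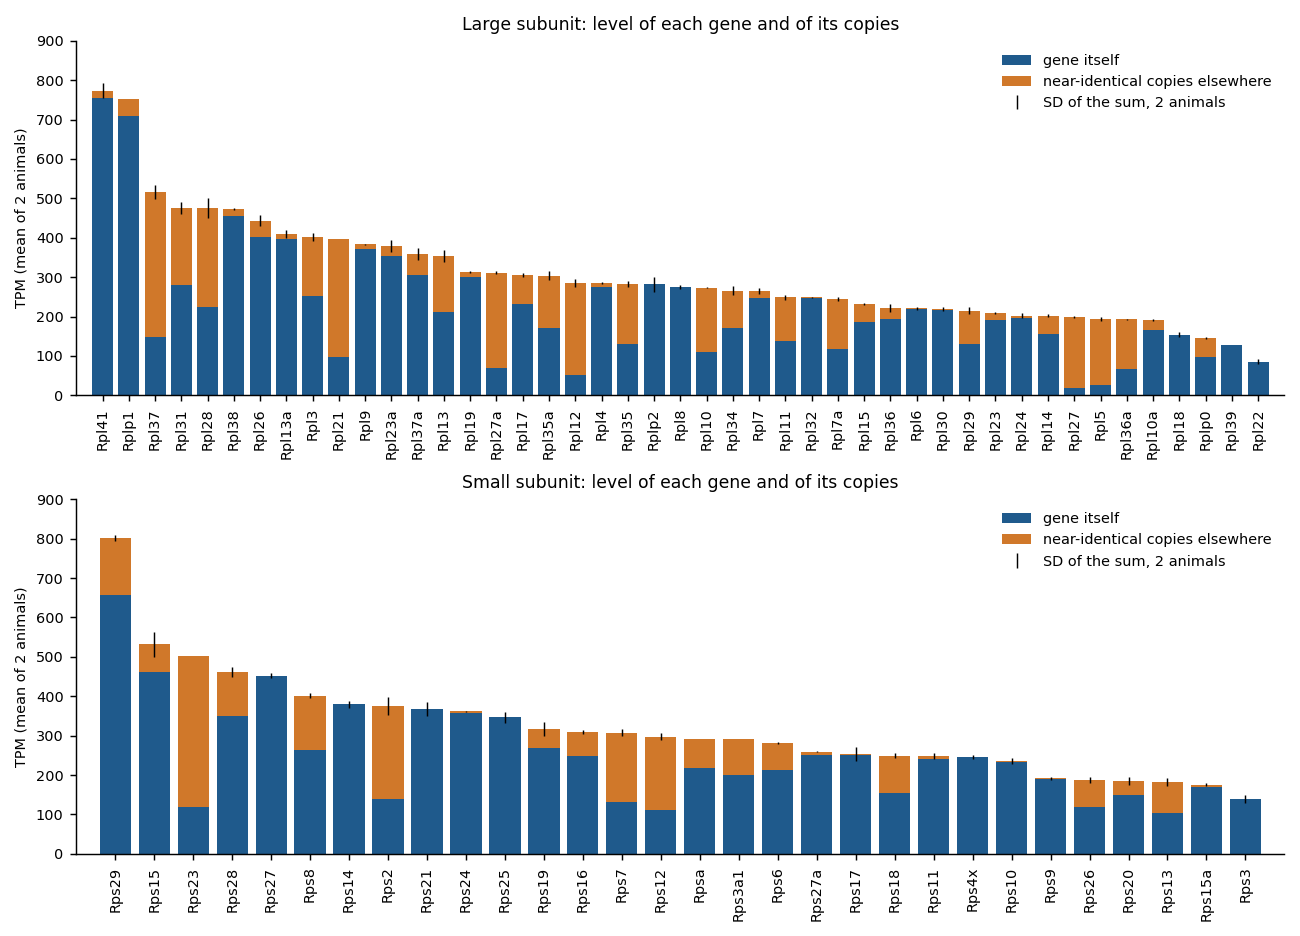
Mean level of core genes over 2 animals (blue) with the mean level of their near-identical copies on top (orange), in TPM on a linear axis from 0. Black bars are the SD of the sum; for Rpl27, Rpl5, Rpl12, Rpl27a, Rps23 and Rpl37 most of the bar belongs to copies.

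The 2 deposited quantifications divided these reads differently. At the level of single genes, 12 of the 77 core genes were at least 2-fold apart between the RSEM-format and the kallisto-format table, and 58 were higher in the kallisto-format table. The correlation of log2 TPM between the tables was r = 0.80 across genes. With copies added to their parents no gene was 2-fold apart and r was 0.93. The largest gaps were for Rpl27 (18.1 TPM in the RSEM-format and 131 TPM in the kallisto-format table), Rpl27a (68.2 and 208 TPM), Rps23 (119 and 330 TPM), Rpl5 (26.1 and 71.0 TPM) and Rpl10 (110 and 272 TPM). For Rpl27 in replicate 1 the authors' deposited bounds around the RSEM-format level were 13.5 and 20.7 TPM, which do not reach the 169 TPM of the kallisto-format table. Such bounds need not hold the deposited level itself: for Rpl41 in replicate 1 they were 731 and 768 TPM, beside a level of 771 TPM.

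The kallisto-format table also placed copies differently in each animal. Rps23-ps1 was at 0.762 TPM in replicate 1 and 196 TPM in replicate 2 there, while Rps23 was at 420 and 241 TPM. Their sum with the other copies was 422 and 440 TPM. Of the 74 copies with at least 10 TPM in the RSEM-format table, 20 were below 1 TPM in the kallisto-format table, among them Rpl31-ps8, Rpl10-ps3 and Gm14303, each listed at 0 in both animals. The parent's median share of the sum was 97.6% in the kallisto-format table, against 85.4% in the RSEM-format table. Whether the copies themselves are transcribed was not tested.

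**Figure D3:**
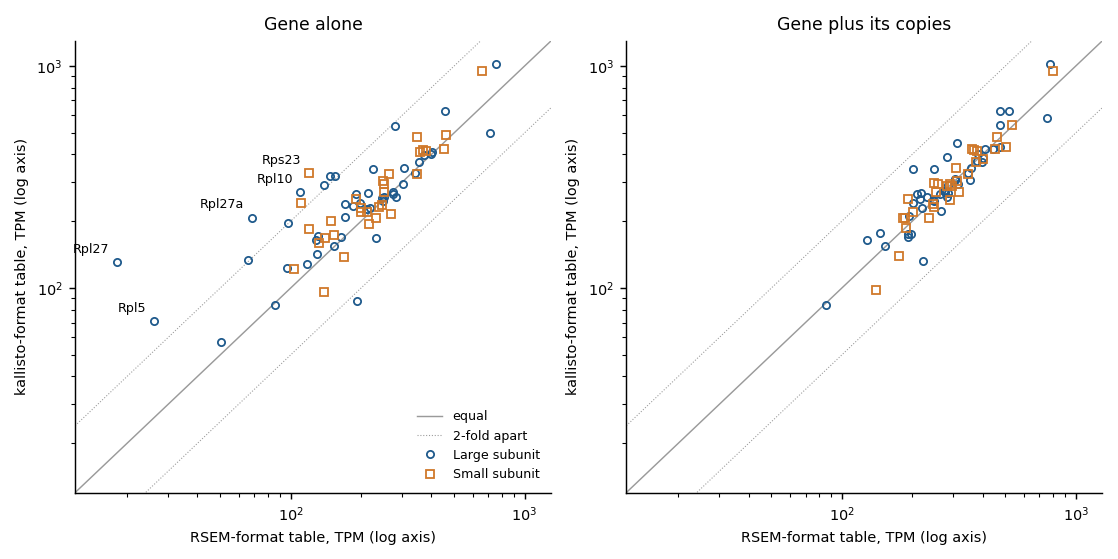
Level of each core gene (mean of 2 animals) in the RSEM-format table against the kallisto-format table, in TPM on log axes, for the gene alone (left) and with its copies (right). The solid line marks equal levels and dotted lines 2-fold; 12 genes lie beyond them on the left and none on the right.

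Paralogs, second genes related to a core gene, were minor in most pairs in the cortex. Rpl10l and Rpl39l, testis-associated relatives of Rpl10 and Rpl39, had 0 reads in both animals, where 3 reads would be 0.0884 and 0.0926 CPM. Rpl3l, the striated-muscle paralog of Rpl3, had 8 and 3 reads and held 0.0973% and 0.0773% of the TPM of its pair. Rpl7l1 held 7.99% and 8.71% of its pair with Rpl7, at 21.1 and 23.8 TPM. Rps27l, known as a p53 target, held 3.02% and 3.47% of its pair with Rps27, at 14.2 and 16.1 TPM. Rps27rt, whose coding sequence is identical to that of Rps27, held 2.65% and 3.12% in the RSEM-format table and was listed at 0 in the kallisto-format table. Rps4l and Rps3a2, paralogs without a coding transcript in this annotation, held 3.46% ± 0.238 of the pair with Rps4x and 31.1% ± 0.576 (SD, n = 2) of the pair with Rps3a1. Rps3a2 differs from Rps3a1 at 4 of 792 aligned bases, and it was also counted above as a copy of Rps3a1.

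By the level of the whole gene, Rpl22l1 and Rpl36al were as abundant as their partners in the RSEM-format table. For Rpl22l1 this held in both tables. Rpl22l1 stood at 101 and 103 TPM, against 81.7 and 89.6 TPM for Rpl22, and so held 55.3% of the pair in replicate 1 and 53.4% in replicate 2. In the kallisto-format table it held 56.1% ± 1.60 (SD, n = 2). Rpl22 binds RNA and is known to repress Rpl22l1. By reads, with no account of length, Rpl22l1 held 36.3%. A stretch of coding sequence is shown, bases 175 to 294 of Rpl22 and 157 to 276 of Rpl22l1. Unlike the copies above, this pair differs at many bases: 110 of 369 aligned bases differ, an identity of 70.2%. Capitals mark the bases that differ. Rpl22 lies at chr4:152325742-152334071 and Rpl22l1 at chr3:28805436-28807424, both on the plus strand of mm10.
Rpl22: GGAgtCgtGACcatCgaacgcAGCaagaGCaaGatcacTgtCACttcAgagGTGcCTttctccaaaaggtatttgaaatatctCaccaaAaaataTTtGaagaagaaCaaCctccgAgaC
Rpl22l1: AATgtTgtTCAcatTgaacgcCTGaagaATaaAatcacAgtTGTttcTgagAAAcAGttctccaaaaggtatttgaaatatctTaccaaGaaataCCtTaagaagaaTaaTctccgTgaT
Rpl39 and Rpl39l show a pair in which the paralog had 0 reads here, with 85.3% of its coding bases matching and the 23 that differ in capitals. Rpl39 lies at chrX:37082520-37085402 on the minus strand and Rpl39l at chr16:10170226-10174911 on the plus strand.
Rpl39: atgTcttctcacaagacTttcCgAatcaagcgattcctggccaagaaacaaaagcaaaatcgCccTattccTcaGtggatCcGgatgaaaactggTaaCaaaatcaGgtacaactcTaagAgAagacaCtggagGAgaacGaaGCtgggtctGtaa
Rpl39l: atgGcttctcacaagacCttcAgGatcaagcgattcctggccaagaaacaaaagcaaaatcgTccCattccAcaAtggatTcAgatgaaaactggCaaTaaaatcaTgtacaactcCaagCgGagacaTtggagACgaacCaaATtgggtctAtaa
Rpl36al held 53.7% and 57.4% of its pair with Rpl36a in the RSEM-format table, at 84.6 and 79.3 TPM, but 36.6% and 37.1% in the kallisto-format table. Rpl36a-ps2, whose sequence has no base different from the coding sequence of Rpl36a, was at 118 and 134 TPM beside that pair.

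Many members have transcripts that are not annotated as protein-coding, such as those with a retained intron. For most core genes these held little: the median share of TPM on protein-coding transcripts was 97.4% in replicate 1 and 96.7% in replicate 2, and in 49 of 77 genes the mean was over 90%. In 14 of 77 it was under 50%. The lowest shares were in Rps16 (2.08% and 2.31%), Rpl35 (2.72% and 3.18%), Rps20 (4.02% and 4.75%) and Rps26 (6.39% and 5.96%). In Rps16, Rps20 and Rps26 the rest was on retained-intron transcripts, and in Rpl35 on processed transcripts.

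In several of these genes the annotated coding transcript is long and the non-coding one has the length of a usual ribosomal protein message. For Rps20 the coding transcript has 3706 bases and was at 6.13 and 6.94 TPM, while a retained-intron transcript of 582 bases was at 126 and 112 TPM. For Rps16 the coding transcript has 1109 bases, at 5.26 and 5.66 TPM, and retained-intron transcripts of 518 and 628 bases were at 155 and 92.4 TPM in replicate 1. For Rpl35 the coding transcript has 946 bases, at 3.58 and 4.19 TPM, and the processed transcript of 541 bases was at 127 TPM in both animals. Of the 77 core genes, 18 were under 50% in the kallisto-format table and 11 in both tables, among them Rps16, Rpl35, Rps20 and Rps26. Rpl12 was at 85.2% there, against 25.6% in the RSEM-format table. Rpl22l1 had 17.4% of its level on coding transcripts in the RSEM-format and 79.2% in the kallisto-format table.

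**Figure D4:**
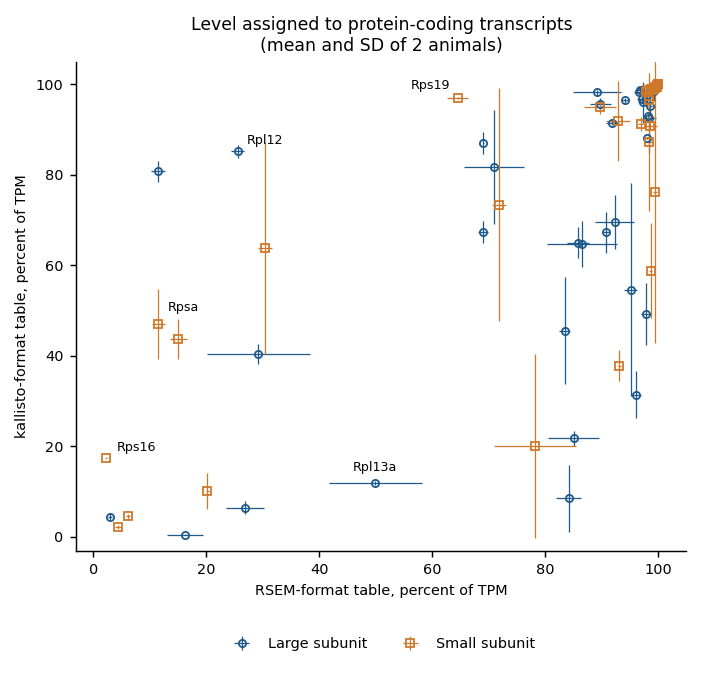
Percent of each core gene's TPM assigned to protein-coding transcripts, RSEM-format table against kallisto-format table. Points are means and bars the SD of 2 animals; 11 genes are under 50% on both axes, and Rpl12 is among those low only on the horizontal axis.

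Between the animals nearly all core genes differed by a small amount in the same direction. The median absolute log2 ratio of the core genes was 0.14, against 0.07 over genes with a mean count of at least 500. A difference was called where the log2 ratio of replicate 2 over replicate 1 was at least 0.32 in size, with at least 10 reads in 1 library. In addition, a Clopper-Pearson interval of the split of reads, at an error rate of 0.001 and after TMM scaling, had to exclude equal levels. Of the 83 members with enough reads, 1 was called, higher in replicate 1, and 0 were called higher in replicate 2. Over all 19484 genes tested, 1.6% were called higher in replicate 1, 1.37% higher in replicate 2 and 2.96% in either direction, so the members' count is not above the background. At 2-fold, 0 members were called, against 0.647% of all genes higher in replicate 1, 0.57% higher in replicate 2 and 1.22% in either direction. The interval covers counting error only, and each animal gave 1 library. The called gene was Rpl36a, with 772 reads in replicate 1 and 565 in replicate 2, a log2 ratio of -0.42 (95% interval -0.58 to -0.26). With its copies added Rpl36a was at 192 and 194 TPM, and no member was called. The kallisto-format counts called 7 of 82 members, all higher in replicate 1. Over the 22042 genes tested there, 1.52% were called higher in replicate 1, 1.75% higher in replicate 2 and 3.26% in either direction. With copies added, 0 members were called in that table.

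The next largest ratios toward replicate 1 were in Rps26 (-0.29, 95% interval -0.40 to -0.19), Rpl31 (-0.29, -0.37 to -0.21), Rpl34 (-0.28, -0.38 to -0.18) and Rps15 (-0.25, -0.31 to -0.19), in log2 of replicate 2 over replicate 1. Toward replicate 2 they were in Rps12 (0.15, 95% interval 0.04 to 0.27), Rps27l (0.10, -0.24 to 0.45), Rpl12 (0.10, -0.04 to 0.23), Rpl10 (0.09, -0.00 to 0.19) and Rpl27 (0.09, -0.18 to 0.36). None of these 9 reached the call. Of these, Rps12, Rpl12, Rpl10 and Rpl27 each had under 50% of the sum with copies on the parent.

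By TMM-scaled reads 70 of the 77 core genes (90.9%) were lower in replicate 2, against 50.3% of 18764 genes with a mean count of at least 10. The median log2 ratio was -0.14 over the core genes, -0.13 over the large and -0.15 over the small subunit, and 0.00 over all those genes. In the deposited TPM, whose scale puts the median gene 0.13 higher in replicate 2, the core median was -0.03 with 47 of 77 genes below 0. Relative to the median gene, the core genes were thus lower by 0.14 in reads and by 0.16 in TPM. Other short genes were also lower: protein-coding genes of 390 to 1217 bases outside the members (1859 genes) had a median log2 ratio of -0.05, with 62.6% below 0. They share the range of length only, since their median length was 942 bases, against 638 bases for the core genes. Mitochondrial ribosomal protein genes had a median of -0.06 and proteasome genes one of -0.04. Markers of glia were below 0 as well, each list with 5 of 5 genes and none called: the median was -0.14 for astrocytes, -0.11 for oligodendrocytes and -0.17 for microglia. Of the markers of inhibitory neurons 5 of 5 were below 0 too, with a median of -0.08, and of 6 markers of excitatory neurons 2 were below 0, with a median of 0.03. All 8 choroid plexus markers were called higher in replicate 1, as stated above. The part of tissue content or transcript length in the shift of the ribosomal protein genes was not tested.

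**Figure D5:**
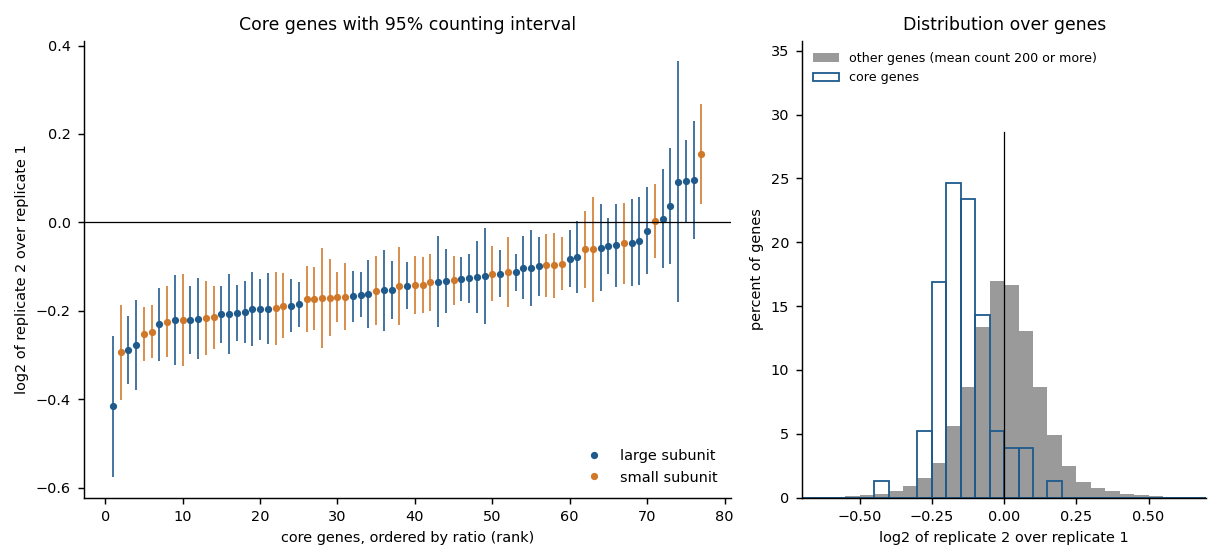
Left, log2 of replicate 2 over replicate 1 for each core gene, ordered by ratio, with 95% counting intervals. Right, the share of core genes (outlines) and of other genes with a mean count of at least 200 (grey) by log2 ratio; 70 of 77 core genes are below 0, while the other genes are centred near 0.

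Other genes of the same pathway were read for comparison, against the 2.96% of all genes called in either direction and the 50.3% with a ratio below 0. A list of 16 other genes with a known TOP element held elongation factors such as Eef1a1 (1245 and 1239 TPM) and Eef2 (416 and 407 TPM). It also held genes not of translation itself, such as Hnrnpa1. Of these 16, 0 were called in either direction, and 15 had a ratio below 0, with a median of -0.09. Of 30 ribosome assembly factors, such as nucleolin (Ncl, 66.0 and 70.8 TPM), 0 were called, 8 were below 0 and the median was 0.06. Npm1 was counted both there and among the genes with a TOP element. Of 11 genes of RNA polymerase I and its factors, which make ribosomal RNA, 0 were called and the median was -0.02. Of 11 genes of mTOR signalling to TOP messages, such as Larp1 (34.9 and 38.3 TPM), 0 were called and the median was 0.02. The assembly factors were far less abundant than the proteins they assemble, with a median of 16.5 TPM in replicate 1 and 18.3 TPM in replicate 2.

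The start sites of the core genes share sequence that the symbol rule did not use. RefSeq promoters of build GRCm38.p6, 250 bases before to 50 bases after the annotated start, matched 57 of the 77 core genes. The 70 bases from 20 before to 50 after the start were first read on the strand that matches the message. A run of at least 8 pyrimidines was found in 45 of 57 core genes (78.9%), against 28.5% of 27025 genes with a promoter entry. The letters CTCTTTC were found there in 12 of 57 (21.1%) against 1.11%; they overlap the pyrimidine run. Over the whole 300 bases CTTCCG, on either strand, was found in 40 of 57 (70.2%) against 18.8%, and TATAAA, on either strand, in 6 of 57 (10.5%) against 15.7%. In the 70-base window the direction for TATAAA was the opposite, with 4 of 57 (7.02%) against 2.35% on either strand. These matches describe letters, not bound sites. Windows of 30 bases around the run are shown for Rpl28 (chr7:4792954-4792983, plus strand), Rpl18 (chr7:45718064-45718093, plus strand), Rpl38 (chr11:114668570-114668599, plus strand), Rps9 (chr7:3704027-3704056, plus strand), Rps26 (chr10:128626482-128626511, minus strand) and Rpl35 (chr2:39005117-39005146, minus strand), with the run in capitals, as examples of pyrimidine-rich starts.
Rpl28: ctctcgtgTCTCTCTTTCCgtctccggccg
Rpl18: gcaggccgCTCTTTCCCCgcccactccggc
Rpl38: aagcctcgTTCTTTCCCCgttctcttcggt
Rps9: ccgccttgTCTCTCTTTgtctcgggcctga
Rps26: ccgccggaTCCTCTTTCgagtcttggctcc
Rpl35: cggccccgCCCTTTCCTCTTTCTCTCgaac
With copies counted, the 12 core genes with CTCTTTC in this window had a median of 252 TPM, from 153 to 503 TPM, and the 45 without had a median of 285 TPM, from 85.7 to 774 TPM.

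Shorter reading frames went with higher levels in the RSEM-format table, as a description across genes. With copies counted, the 9 core genes with under 300 coding bases had a median of 461 TPM. The 46 genes with 300 to under 600 coding bases had a median of 282 TPM and the 22 with at least 600 bases one of 269 TPM. The ranges overlapped, since Rpl39, among the shortest, was at 128 TPM. Across the 77 genes the correlation of log2 level with log2 coding length was r = -0.31. The RSEM-format table also lists an effective length, which falls short of the full length by a larger share in short genes. In replicate 1 it was 254 of 354 bases for Rpl38 and 641 of 741 bases for Rpl9. The part of this correction in the trend was not tested, and the trend was not examined in the kallisto-format table.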

How the data were processed

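RNA depleted of ribosomal RNA, with ERCC spike-ins, was sequenced with a directional kit in 2 libraries, per the labels. The assembly was mm10 and the annotation M21, per the submitters' processing notes and deposited notes; for the aligner and strand setting: not given in the sources used here; without strand, reads of a gene and its antisense partner cannot be told apart. The authors deposited expected counts and TPM per gene and transcript in RSEM format, and estimated counts and TPM per transcript in kallisto format. Expected counts were rounded to whole reads. From these, levels, shares and ratios were computed in Python 3.11.15, with TMM factors from edgeR 4.0.16 and size factors from DESeq2 1.42.0, and 0.5 reads added to ratios. There is 1 group, so no test between conditions was made. Intervals are Clopper-Pearson and cover counting error only, since reads carry no molecular identifiers. The ratio script was tested on simulated data. The genes named were the 5 highest and 5 lowest by level in each subunit and the 5 with the largest ratio in each direction. Other genes named here, the copies among them, were chosen after their values were seen. Members and lists were chosen with earlier results of these data known. Some genes are counted in the totals but are not reported here by name.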

Additional observations from a re-analysis of the deposited data

How the results depend on the processing

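The members' median level of 195 TPM was 231 in the kallisto-format table, 447 over nuclear protein-coding genes, 201 for members with at least 10 reads in both and 271 with copies. The spread (SD of log2) of the core genes, 0.93, was 0.77 in the kallisto-format table and 0.89 by counts per kilobase. With copies defined by 50, 100 and 200 shared runs it was 0.59, 0.59 and 0.57 in the RSEM-format table, and 0.64, 0.64 and 0.63 in the kallisto-format table. Large minus small, -0.24, reversed to 0.074 in the kallisto-format table and was -0.33 for genes with under 50% shared sequence. With copies it was -0.075, -0.075 and -0.074 in the RSEM-format table and -0.070, -0.072 and -0.069 in the kallisto-format table. In the kallisto-format table the paralog's share of its pair was 0.133% for Rpl3l, 56.1% for Rpl22l1, 36.8% for Rpl36al, 4.47% for Rps27l, 0% for Rps27rt, 21.9% for Rps3a2 and 0.0623% for Rps3a3. By expected counts it was 15.8% for Rpl7l1, 36.3% for Rpl22l1, 3.22% for Rps4l, 5.14% for Rps27l and 26.2% for Rps3a2. The median coding share was 93.9% in the kallisto-format table, against 97.2%. Members called between the animals, 1 by the rule, were 7 of 82 by kallisto-format counts (where 3.26% of all genes were called), 0 at 2-fold, 0 with copies and 0 with copies in the kallisto-format table. The members' median log2 ratio, -0.14, was -0.023 by TPM. The cause of each shift was not tested. With 2 animals, leaving 1 out cannot move a mean beyond its SD, so it says nothing about stability; ratios need both animals and have no such value. Alternatives with copies, and the ratio by TPM, were chosen after seeing the data. No paired analysis was possible because there is only 1 group. With 1 library per animal, counting intervals do not hold the variation between animals.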

Other observations

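Many ribosomal protein genes carry small nucleolar RNA genes, which guide the modification of ribosomal RNA, inside their introns. In the annotation 30 of the 77 core genes held at least 1, and 58 such genes in all. With copies counted, the core genes with one had a median of 290 TPM ± 2.27 and the 47 without had one of 275.0 TPM ± 5.22 (SD, n = 2). The core genes were spread over 18 autosomes and the X chromosome, which held 4.

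The 7 of 82 members that the kallisto-format counts called higher in replicate 1, where 1.52% of all genes were so called, were Rpl27 (-0.72), Rps23 (-0.58), Rpl36al (-0.55), Rpl17 (-0.48), Rpl36a (-0.45), Rpl11 (-0.36) and Rpl35a (-0.33), in log2 of replicate 2 over replicate 1. Only Rpl36a was called in the RSEM-format table as well.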
